A study of Mus musculus with 24 samples.

Results

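The 46 genes described here belong to families of enzymes that add or remove acetyl and methyl groups on histones. Some of them act mainly on other substrates or have no known catalytic activity, as given below. The 46 were chosen by gene symbol, with no measured value in the rule, but with earlier results of these data known. They comprise 10 zinc-dependent deacetylases (Hdac genes), 6 sirtuins, 8 acetyltransferases, 12 methyltransferases and 10 demethylases. All 46 were found by their Ensembl IDs among the 37991 gene rows of the count table. Each of them passed the filter on low counts in both experiments, so they stand among 15249 genes tested in wild-type mice and 17597 genes tested in floxed mice.

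RNA sequencing was done on punches of mouse nucleus accumbens, a ventral striatal region of the reward circuit, from C57BL/6J animals of unstated age; the extraction text also names dorsal striatum. In the wild-type experiment (genotype WT, no virus) the groups were stressed females, control females, stressed males and control males. The floxed experiment held Cre females, GFP females, Cre males and GFP males: all of these mice had the genotype Dnmt3a2lox/2lox, with loxP sites on both Dnmt3a alleles, and all of them were stressed. They received the adeno-associated virus AAV-CRE, which carries the recombinase that cuts out DNA between loxP sites together with GFP, or AAV-GFP, which carries GFP alone. Each group had 3 libraries, and by the protocol each library pooled mRNA of 4 mice, so n counts libraries. The design text counts 3 mice per group instead. The labels call these libraries independent biological replicates. The labels give neither the promoter that drives Cre nor the share of cells the virus reached. The stress was subchronic variable stress, a short series of changing stressors.

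Acetyl groups on histone tails loosen chromatin and are read by activating complexes. Acetyltransferases place them, and the zinc-dependent deacetylases and the NAD-dependent sirtuins take them off. Methyl groups act by position: on lysine 4 of histone H3 (H3K4) they mark promoters and enhancers, on lysine 36 and lysine 79 transcribed genes, and on lysine 9 and lysine 27 silenced ones, and the demethylases remove them from particular lysines. In the nucleus accumbens, Hdac5, Ehmt2 and their relatives are known from rodent work on drug reward and chronic stress. Dnmt3a, the gene targeted in the floxed mice, is a DNA methyltransferase that methylates cytosines, mainly where a guanine follows.

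Because the floxed experiment targets a DNA methyltransferase, the promoters of 4 enzymes are shown, chosen after their values in Cre males were seen. These are Kdm4c, the only enzyme of the 46 that was called, Ezh2 and Hdac5, which had the next smallest p-values there, and Hdac4, the class IIa relative of Hdac5. Kat6b and Setd2 had smaller p-values there than Hdac4 and are not shown. Each stretch is the 250 bases before an annotated transcription start in RefSeq (build GRCm38.p6), read 5′ to 3′ on the strand of the gene, and capitals mark each cytosine followed by a guanine (CG pair), the main substrate of Dnmt3a. Kdm4c has a pair of annotated starts. DNA methylation was not measured in these files.
Kdm4c first start, chr4:74242247-74242496, plus strand: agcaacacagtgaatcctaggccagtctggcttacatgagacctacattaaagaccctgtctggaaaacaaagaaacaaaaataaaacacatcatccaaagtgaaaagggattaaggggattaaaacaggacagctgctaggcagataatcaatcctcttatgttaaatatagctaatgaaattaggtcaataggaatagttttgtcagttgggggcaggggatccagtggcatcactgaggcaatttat
Kdm4c second start, chr4:74251629-74251878, plus strand: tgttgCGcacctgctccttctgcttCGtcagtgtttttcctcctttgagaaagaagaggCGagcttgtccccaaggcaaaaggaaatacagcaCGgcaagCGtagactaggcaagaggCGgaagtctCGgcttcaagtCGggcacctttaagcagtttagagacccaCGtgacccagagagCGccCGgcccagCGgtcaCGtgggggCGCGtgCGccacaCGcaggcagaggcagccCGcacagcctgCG
Ezh2, chr6:47595031-47595280, minus strand: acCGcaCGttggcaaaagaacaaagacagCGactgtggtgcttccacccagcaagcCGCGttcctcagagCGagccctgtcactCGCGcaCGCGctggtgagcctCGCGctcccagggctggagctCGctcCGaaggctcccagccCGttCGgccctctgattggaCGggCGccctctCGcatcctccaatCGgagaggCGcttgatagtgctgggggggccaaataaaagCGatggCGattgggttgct
Hdac5, chr11:102230173-102230422, minus strand: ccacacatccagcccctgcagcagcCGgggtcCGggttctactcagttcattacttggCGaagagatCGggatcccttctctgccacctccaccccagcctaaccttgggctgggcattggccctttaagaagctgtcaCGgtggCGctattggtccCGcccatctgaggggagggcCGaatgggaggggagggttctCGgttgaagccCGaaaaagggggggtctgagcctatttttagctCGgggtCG
Hdac4, chr1:92180342-92180591, minus strand: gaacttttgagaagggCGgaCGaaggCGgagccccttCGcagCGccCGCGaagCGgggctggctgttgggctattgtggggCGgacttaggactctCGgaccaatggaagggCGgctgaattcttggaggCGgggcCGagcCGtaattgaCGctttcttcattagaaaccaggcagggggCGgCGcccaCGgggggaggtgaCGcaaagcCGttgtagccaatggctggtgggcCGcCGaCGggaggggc

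The second Kdm4c start holds 19 CG pairs where the first holds 0, and the count is 23 for Ezh2, 12 for Hdac5 and 23 for Hdac4. Of the 46 genes, 37 matched the RefSeq promoter table, with 53 starts among them. Their median was 20 CG pairs per 250 bases, against 6 over all 32851 starts of 27025 genes in that table. That table holds genes whether or not they passed the filter on low counts, which all 46 did. A comparison limited to genes that passed was not made, here or for the words below. Starts that lie close together, as in Kat6b, were counted separately. The Sp1 GC box GGGCGG, searched on both strands, lay in 60.4% of the 53 starts against 32.7% of all starts. The CCAAT box, the 5 letters that NF-Y binds, lay in 32.1% against 33.9%. The full cAMP response element TGACGTCA was found in 1 start, that of Suv39h2 (1.89% against 1.55%), and the E2F words TTTGGCGC or TTTCCCGC in none of the 53 (0% against 1.30%). None of these words contains another, and a match describes these letters and not binding.

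Library totals were 28132563 to 59829070 counts in the floxed and 7116123 to 12145551 in the wild-type experiment, and every pair of libraries within a group differed by more than sampling noise. Drd1 and Drd2, the dopamine receptors that define medium spiny neurons, were present in all 24 libraries (138 to 335 CPM and 93.2 to 352 CPM), where CPM is the count scaled to library size with edgeR's TMM factors, per 1000000 counts. Dnmt3a itself was at 143, 137 and 138 CPM in Cre males against 182, 164 and 171 in GFP males (log2 fold change -0.30, edgeR adjusted p = 0.0149), and at 155, 150.4 and 139.8 CPM in Cre females against 162, 169 and 155 in GFP females (log2 fold change -0.12, edgeR adjusted p = 0.829). These counts cover the whole gene and not only its deleted part. Cre males also differed in tissue markers: all 8 cortical excitatory neuron markers were called higher (median log2 4.83), and their summed level was 743, 733 and 415 CPM in Cre males against 112, 122 and 156 in GFP males, with none of the 8 at 0 in the Cre males. Cre male library 2 stood apart further, with summed medium spiny neuron markers at 2664 CPM against 4942 to 6527 CPM in the other 11 floxed libraries, and Ttr, a choroid plexus gene, at 1848 CPM. A change caused by Cre and a change caused by cortical tissue in the punch cannot be told apart in males. In punches, fewer cells of a type and less RNA per cell cannot be told apart either.

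Across the 46 genes, levels per kilobase of exon differed over a wide range but their order was much alike in the 2 experiments. Hdac11, the only class IV deacetylase, was the most abundant per kb, at 55.7 ± 2.43 CPM per kb in floxed and 57.9 ± 7.91 CPM per kb in wild-type libraries (mean ± SD, n = 12 libraries each, here and in the levels that follow), above 96.3% and 95.7% of the genes tested there. Ehmt2 (G9a), which places mono- and dimethyl groups on lysine 9, came next at 42.03 ± 3.14 and 44.3 ± 7.21 CPM per kb. Suv39h2, a trimethylase of the same lysine, was the least abundant of all 46, at 1.10 ± 0.158 and 0.917 ± 0.198 CPM per kb. The lysine 9 enzymes therefore hold both the second and the last place.

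Within the deacetylases, class I was led by Hdac2 and Hdac3, the catalytic subunits of the large corepressor complexes. Hdac3 stood at 21.6 ± 0.92 and Hdac2 at 19.9 ± 1.25 CPM per kb in floxed libraries, and the order was turned in wild-type libraries, at 19.7 ± 2.11 for Hdac3 and 24.8 ± 5.47 for Hdac2, with overlapping ranges in both. Hdac8 was lowest of class I (2.11 ± 0.142 and 2.78 ± 0.26 CPM per kb). Class IIa deacetylases are signal-dependent repressors that shuttle between nucleus and cytoplasm, and Hdac5 was by far the most abundant of them, at 17.2 ± 1.61 CPM per kb in floxed libraries against 1.18 ± 0.141 for Hdac4 and 1.39 ± 0.211 for Hdac9. In wild-type libraries Hdac5 was at 21.7 ± 3.25 CPM per kb and Hdac9 lowest, at 1.45 ± 0.226. Hdac10, a class IIb enzyme known as a polyamine deacetylase, was at 3.38 ± 0.315 and 2.09 ± 0.433 CPM per kb. Among sirtuins, Sirt2, a mainly cytoplasmic tubulin deacetylase abundant in myelin, led with 22.5 ± 1.17 and 20.8 ± 3.00 CPM per kb, and Sirt5, a mitochondrial desuccinylase, was last with 1.68 ± 0.0904 and 1.30 ± 0.184.

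The acetyltransferases spanned a narrower range than the deacetylases. Kat2a (GCN5), the enzyme of the SAGA complex, was highest at 22.4 ± 1.05 and 20.3 ± 2.16 CPM per kb, and its paralog Kat2b (PCAF) was lowest in wild-type libraries at 4.46 ± 0.848, while Kat6b was lowest in floxed libraries at 5.51 ± 0.374. The coactivators Ep300 and Crebbp, which are close relatives, stood at 8.44 ± 0.453 and 5.58 ± 0.415 CPM per kb in floxed libraries. Of the H3K27 methyltransferases, which are alternative catalytic subunits of Polycomb repressive complex 2, Ezh1 was the more abundant in every library, at 10.4 ± 0.342 against 1.67 ± 0.202 CPM per kb for Ezh2 in floxed libraries and 10.5 ± 0.892 against 1.36 ± 0.287 in wild-type libraries. Kmt2a led the H3K4 methyltransferases (21.4 ± 1.79 and 20.2 ± 2.32 CPM per kb) and Kmt2c came last (8.84 ± 0.687 and 8.89 ± 1.11). Dot1l, the H3K79 enzyme, was above Setd2, the H3K36 trimethylase, in floxed libraries (13.6 ± 0.851 against 11.4 ± 0.711 CPM per kb) and below it in wild-type libraries (9.14 ± 1.85 against 11.6 ± 1.51). Kdm4b was the leading demethylase (18.7 ± 1.13 and 18.1 ± 4.15 CPM per kb) and Kdm2b the last (2.39 ± 0.12 and 2.32 ± 0.209). Without division by length, the gene at the top was the same in 13 of the 20 class and experiment pairs.

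**Figure D1:**
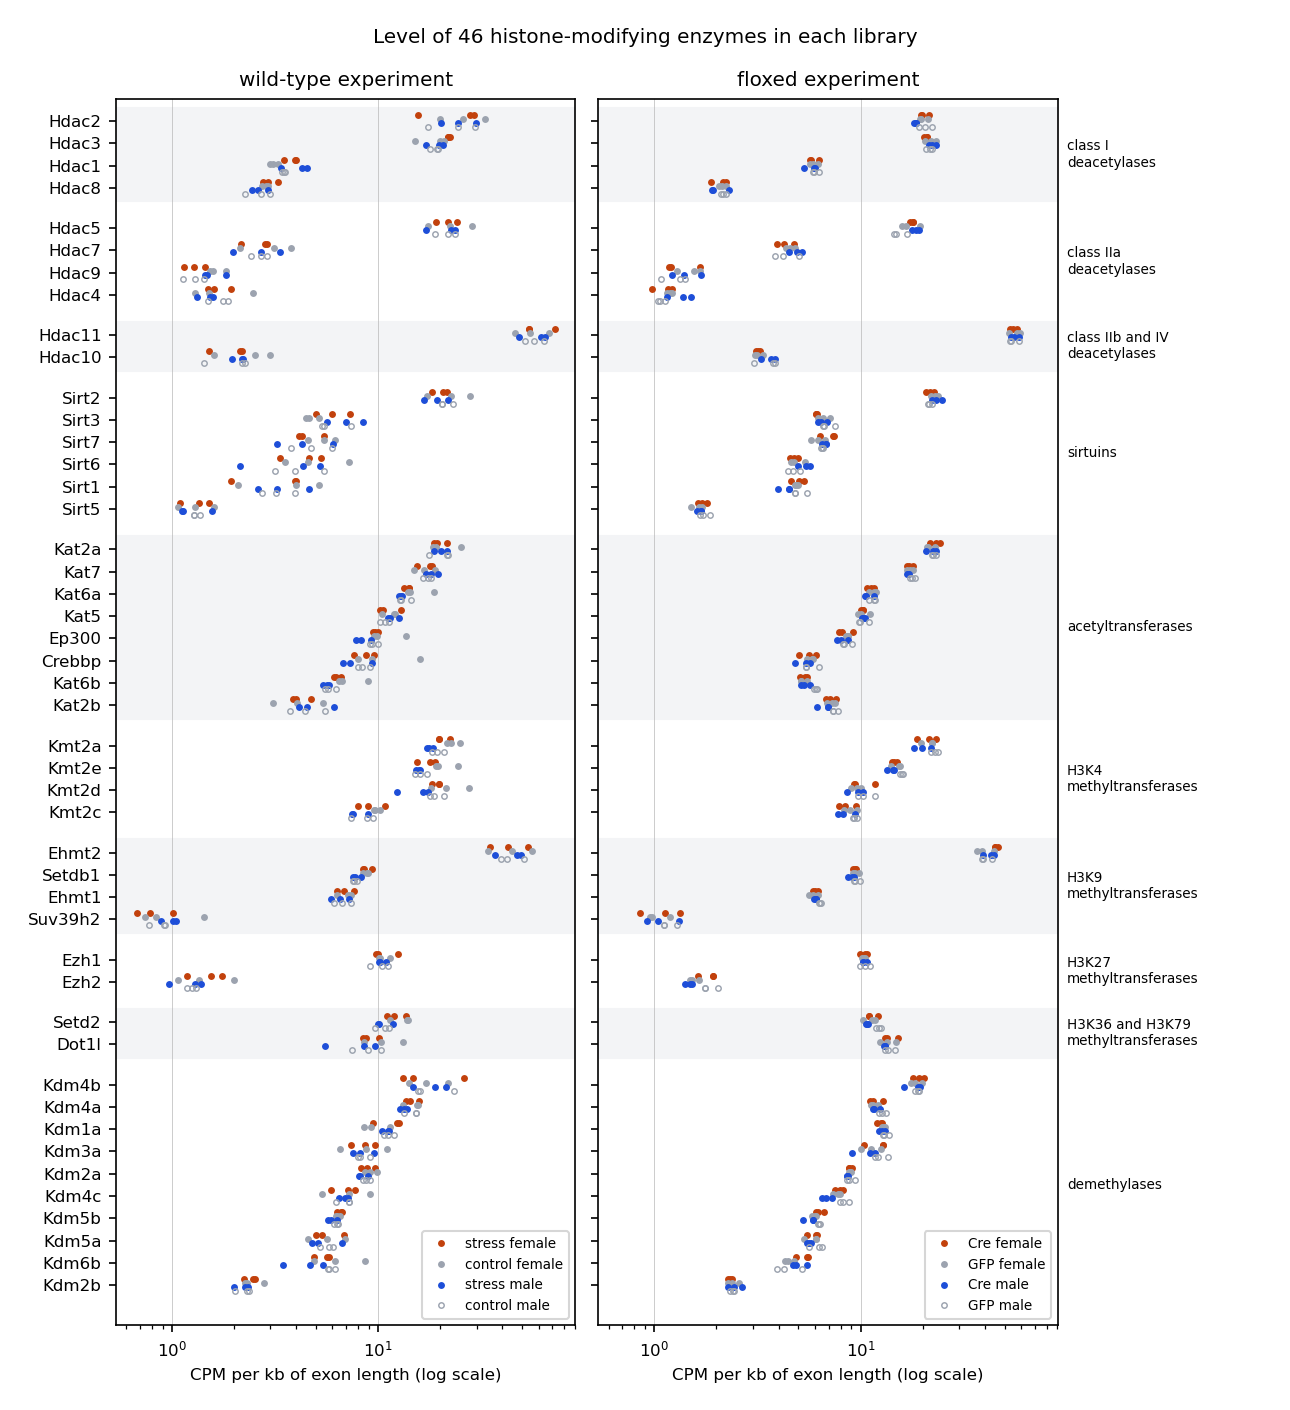
Level of each of the 46 enzymes in each library, in CPM per kb of exon length on a log axis, by enzyme class, with wild-type libraries on the left and floxed libraries on the right and 1 point per library. Hdac11 and Ehmt2 lie furthest right in both panels, and the points of a gene lie closer together in the floxed panel.

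Libraries of a group lay closer together in the floxed experiment. The median coefficient of variation over the 46 genes was 5.24% in Cre females, 5.08% in GFP females, 5.74% in Cre males and 4.65% in GFP males. It was 11.4% in stressed females, 19.0% in control females, 10.3% in stressed males and 8.1% in control males. Control female library 1 carried much of the spread among control females: Crebbp, for example, was at 215, 126 and 108 CPM in control female libraries 1, 2 and 3, and Kmt2d at 549, 427 and 359.

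Stress changed none of the 46 enzymes past the test in either sex. In females 0 of 46 were called at an edgeR adjusted p below 0.05, against a background of 0% of all 15249 genes tested (256 genes had an unadjusted p below 0.05, and DESeq2 called 2). In males 0 of 46 were called, against 0.00656% of genes, and averaged over the sexes 0 of 46, against 0.0131%. Each adjusted p of an enzyme was 1. The replicate numbers pair the female libraries by correlation, and the male libraries more weakly. With that number as a block 5 genes were called in females, 4 in males and 13 averaged, none of them among the 46. The 95% intervals of the 46 enzymes all lay within 2-fold in each sex, and within 1.5-fold for 32 in females and 34 in males. Averaged over the sexes, 44 of 46 intervals lay within 1.5-fold. Median log2 fold changes were -0.064 in females, -0.023 in males and -0.037 averaged, beside -0.0058, -0.0011 and -0.0048 over all genes tested. These medians depend on the processing: without control female 1 they were -0.0032 in females, -0.0090 in males and -0.020 averaged, and with GC content and length corrected the male median was 0.0079.

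Among the class IIa deacetylases, Hdac9 lay on opposite sides of its controls in the sexes. Hdac9, a repressor of MEF2 target genes, was at 16.8, 18.7 and 21.1 CPM in stressed females against 26.9, 23.3 and 22.3 CPM in control females (log2 fold change -0.35, SE 0.15, edgeR adjusted p = 1). All 3 stressed female libraries lay below all 3 control female libraries, and without the libraries numbered 1 the log2 fold change was -0.20. In males it was at 21.3, 26.7 and 21.7 CPM under stress against 16.5, 19.0 and 20.9 CPM in controls (log2 fold change 0.30, SE 0.15, edgeR adjusted p = 1), and all 3 stressed libraries lay above the controls. Without stressed male 2 that value was 0.19. The difference of the stress effects, female minus male, was -0.66 on the log2 scale (95% interval -1.13 to -0.19, edgeR adjusted p = 1). It was the smallest p of the 46 for that contrast, in which 0 of 46 enzymes and 0% of all genes were called. The other 3 class IIa genes had intervals that spanned 0 in both sexes, from -0.20 to -0.072 in females and -0.21 to 0.0033 in males on the log2 scale.

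Hdac1, a class I deacetylase of the Sin3, NuRD and CoREST corepressors, was at 13.7, 13.5 and 11.96 CPM in stressed females against 10.2, 11.2 and 10.7 in control females, and at 11.7, 14.8 and 15.6 CPM in stressed males against 11.7 to 12.2 in control males. The female groups did not overlap, and stressed male library 1 was just below the lowest control male. Averaged over the sexes the log2 fold change was 0.26 (SE 0.10, edgeR adjusted p = 1). Hdac3, the catalytic subunit of the NCoR complex, was at 89.9, 88.0 and 88.5 CPM in stressed females against 60.9, 84.3 and 80.8 in control females, again without overlap, but at 84.0, 69.5 and 80.3 CPM in stressed males against 77.9, 79.4 and 72.7 in control males.

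No acetyltransferase and no sirtuin had groups that did not overlap in either sex. Acetyltransferases had log2 fold changes of -0.36 to 0.024 in females, with 6 of 8 negative, and -0.18 to 0.11 in males, with 5 of 8 negative. The lowest of these was Crebbp in females, at 129, 118 and 104 CPM under stress against 215, 126 and 108 in controls, groups that overlap and differ mostly by control female library 1. Sirt3, the main mitochondrial deacetylase, was at 43.7, 29.8 and 35.5 CPM in stressed females against 30.9, 27.7 and 26.6 in control females (log2 fold change 0.35, edgeR adjusted p = 1).

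All 4 H3K4 methyltransferases had negative log2 fold changes in both sexes, with medians of -0.19 in females and -0.11 in males, and none was called. Across the 46 genes the stress effect fell with transcript length (Spearman's rho -0.37 in females and -0.46 in males). Over 14666 genes the values were -0.12 and -0.16. Kmt2d, Kmt2a and Kmt2c have the longest transcripts of the 46 (19823, 16470 and 14967 bases), and Kmt2e has 7317. The part of length in this class was not tested. Kmt2d, which methylates H3K4 at enhancers, was at 348, 245 and 330.2 CPM in stressed males against 356, 372 and 414 in control males, without overlap (log2 fold change -0.31, edgeR adjusted p = 1, and -0.17 without stressed male 2). In females it was at 395, 392 and 365 CPM under stress against 549, 427 and 359 in controls. Averaged over the sexes its log2 fold change was -0.26 (SE 0.12, edgeR adjusted p = 1), -0.16 without control female 1 and -0.075 after correction for GC content and length. Kmt2e (MLL5), a family member without known catalytic activity of its own, was at 161, 197 and 186 CPM in stressed females against 254, 204 and 199 in control females (log2 fold change -0.27, edgeR adjusted p = 1). That value was -0.15 without control female 1 and -0.082 without all the libraries numbered 1. The H3K9 and H3K27 enzymes lay between -0.29 (Suv39h2) and 0.021 (Ezh2) in females and between -0.042 (Ezh2) and 0.18 (Suv39h2) in males.

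Among demethylases, Kdm6b (JMJD3), an activity-inducible enzyme that removes methyl groups from lysine 27, was at 32.4, 24.1 and 37.5 CPM in stressed males against 40.0, 39.8 and 42.8 in control males. All 3 stressed male libraries lay below the controls (log2 fold change -0.38, SE 0.20, edgeR adjusted p = 1), and without stressed male 2 the value was -0.23. In females it was at 40.2, 39.3 and 33.8 CPM under stress against 59.9, 43.1 and 34.0 in controls, which overlap. The average over the sexes was -0.33 on the log2 scale (edgeR adjusted p = 1), and -0.20 without control female 1. Kdm1a (LSD1), the CoREST demethylase of lysine 4, had the second smallest p for the female minus male difference of the stress effect (log2 0.28, edgeR adjusted p = 1), and the third was Kmt2e (log2 -0.23, edgeR adjusted p = 1). Without the libraries numbered 1 these differences were 0.064 for Kdm1a and -0.0023 for Kmt2e, and without control female 1 alone 0.18 and -0.13.

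Groups without overlap numbered 4 of 46 enzymes in females (Hdac1 and Hdac3 above, Hdac9 and Kmt2e below) and 3 of 46 in males (Hdac9 above, Kdm6b and Kmt2d below). Over all genes tested 5.3% in females and 7.91% in males had groups without overlap, so the enzymes stood near the background. Markers of other tissue differed between the same libraries, and their part in these values was not tested. Summed choroid plexus and ependyma markers were 85.3 to 198 CPM in stressed males against 50.3 to 2619.9 CPM in control males, with 8 of 8 markers lower and none called. Summed cortical markers were 174 to 249 CPM in stressed females against 199 to 457 CPM in control females, with 7 of 7 tested markers lower and none called.

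**Figure D2:**
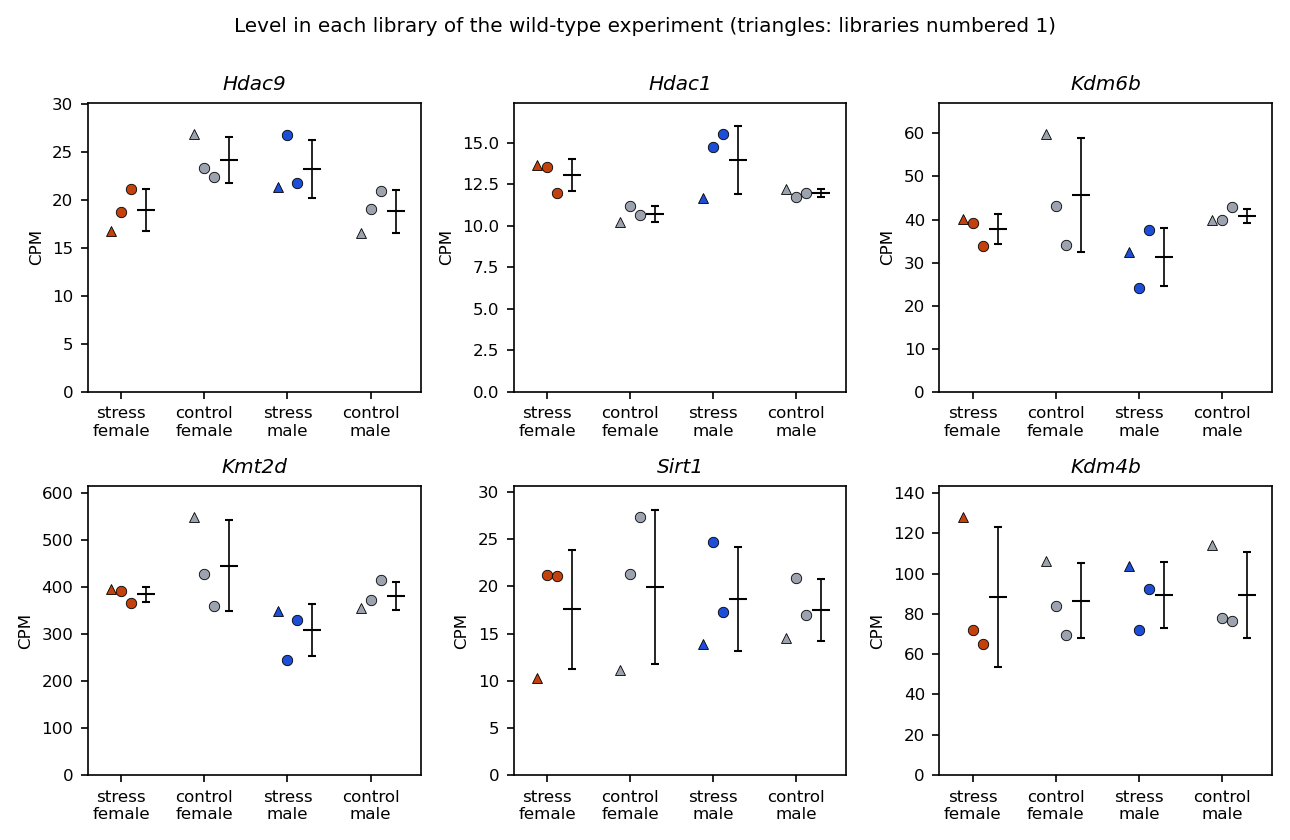
CPM in each wild-type library for 6 enzymes, with stressed beside control groups for females and then males, triangles for the libraries numbered 1, and bars for the mean with its SD (n = 3). Hdac9 lies below its controls in stressed females and above them in stressed males, and in each group the triangle is lowest for Sirt1 and highest for Kdm4b.

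Several enzymes differed between wild-type libraries by library number. Sirt1, the nuclear sirtuin linked to energy state, was at 10.3 to 14.5 CPM in the 4 libraries numbered 1 against 17.0 to 27.4 CPM in the 8 libraries numbered 2 and 3. Kdm4b, a demethylase of lysine 9, ran the other way, at 104 to 128 CPM in the libraries numbered 1 against 64.8 to 92.2 CPM in the others. In all, 10 of 46 enzymes had no overlap between the libraries numbered 1 and the rest, against 16.1% of all genes tested. Ezh1, Ehmt2, Kdm4b, Hdac11, Sirt6 and Ehmt1 were higher in the libraries numbered 1 and Hdac2, Sirt1, Kdm4c and Kdm3a lower. This difference followed the GC content of the exons across the 46 genes (Spearman's rho 0.826, n = 46 genes) and across all genes tested (rho 0.683, n = 14666), given as a description, since the genes share the same libraries. Every group holds 1 library of each number, and in the 8 libraries numbered 2 and 3 again 0 of 46 enzymes were called for stress.

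Females and males of the wild-type experiment did not differ in any of the 46 enzymes past the test, against 0.0393% of all genes. The log2 difference, female minus male, was positive for 38 of 46, with a median of 0.073 beside -0.0016 over all genes. It was positive for 30 of 46 without control female 1, and for 32 of 46 without stressed male 2 or without the libraries numbered 1. The 4 H3K4 methyltransferases had differences of 0.21 to 0.27. Across the 46 genes the difference rose with transcript length (Spearman's rho 0.48, beside 0.22 over 14666 genes), and the part of length was not tested. Kmt2a, whose product is cleaved by taspase and methylates H3K4, was at 328, 329 and 370.5 CPM in stressed and 417, 361 and 377 in control females, against 293, 289 and 307 in stressed and 303, 347 and 322 in control males (log2 difference 0.23, edgeR adjusted p = 0.971). It was followed by Kmt2e (0.26) and the acetyltransferase Kat6b (0.26), both with an edgeR adjusted p of 0.971. Without control female 1 the difference of Kat6b was 0.17. With GC content and length corrected the difference of Kmt2a was 0.063. In the floxed experiment 0 of 46 differed between females and males, against 0.0682% of genes, and signs were even, with 23 positive and 23 negative. Kat6b had the smallest p there, with a negative sign (log2 difference -0.11, edgeR adjusted p = 0.535), before Hdac10 (-0.17, edgeR adjusted p = 0.697) and Sirt3 (-0.076, edgeR adjusted p = 0.875, and -0.045 without GFP male 1).

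**Figure D3:**
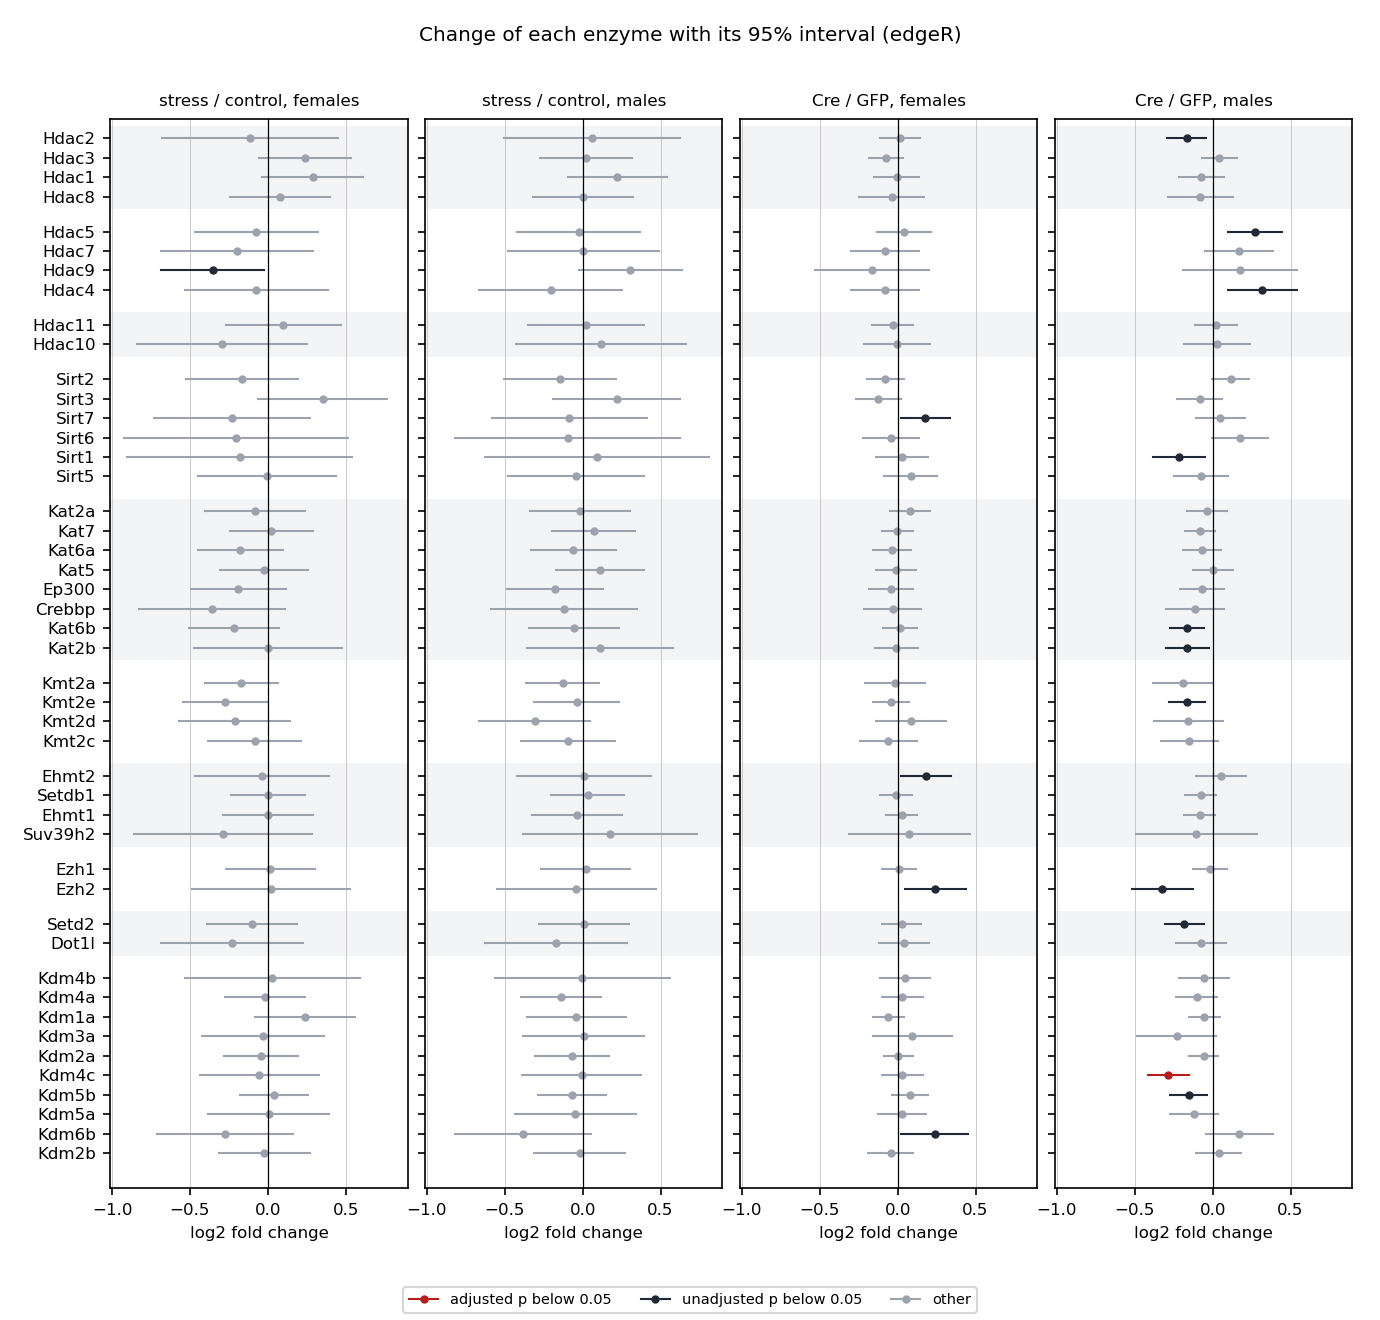
Log2 fold change of each of the 46 enzymes with its 95% interval from edgeR, for stress against control in females and males and for Cre against GFP in females and males, red where the adjusted p was below 0.05 and dark where only the unadjusted p was. The intervals are wider in the 2 stress panels, and Kdm4c in Cre males is the only red point.

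Cre against GFP in males was the only comparison in which an enzyme was called, and most log2 fold changes there were small and negative. Kdm4c fell, and 1 of 46 enzymes was called against a background of 4.96% of all 17597 genes (647 higher and 225 lower). Log2 fold changes of the 46 ranged from -0.32 to 0.32 with a median of -0.075, beside 0.0046 over all genes, and 32 of 46 were negative (38 of 46 with GC content and length corrected). All 46 intervals lay within 1.5-fold. An unadjusted p below 0.05 was found for 11 of 46, against 24.8% of all genes, and groups did not overlap for 14 of 46 (2 higher and 12 lower), against 29.4% of all genes, so the count of enzymes was near the background in both respects.

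Kdm4c, a demethylase of lysine 9 that works on di- and trimethyl marks, was at 39.5, 37.8 and 42.4 CPM in Cre males against 46.5, 48.0 and 51.2 CPM in GFP males. No Cre male library reached the lowest GFP male library. The log2 fold change was -0.28 (SE 0.06, 95% interval -0.42 to -0.15, edgeR adjusted p = 0.024). In females it was at 46.1, 48.1 and 43.5 CPM with Cre against 46.5, 45.4 and 42.9 CPM with GFP, which overlap (log2 fold change 0.031, edgeR adjusted p = 0.958). The call depends on single libraries: the adjusted p was 0.0725 without Cre male 1, 0.0736 without Cre male 2 (the library with the choroid plexus signal), and 0.0515, 0.0776 and 0.1 without GFP male 1, 2 and 3, at log2 fold changes between -0.33 and -0.24. With the males fitted alone the adjusted p was 0.0594.

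No other enzyme of the 46 was called in Cre males. Ezh2, with the next smallest p, was at 9.44, 9.96 and 10.2 CPM in Cre males against 11.7, 11.8 and 13.5 CPM in GFP males, without overlap (log2 fold change -0.32, SE 0.09, edgeR adjusted p = 0.0603). Its paralog Ezh1 was at 76.5, 79.8 and 76.1 CPM in Cre males against 78.5, 73.8 and 82.5 in GFP males (log2 fold change -0.015, 95% interval -0.12 to 0.095). All 4 class IIa deacetylases had positive log2 fold changes, from 0.17 to 0.32, and none was called. Hdac5 was at 163, 169 and 156 CPM in Cre males against 148, 129.8 and 127 in GFP males (log2 fold change 0.27, SE 0.08, edgeR adjusted p = 0.0718). Hdac4 was at 21.7, 23.7 and 18.2 CPM in Cre males against 16.4, 17.8 and 16.8 in GFP males (log2 fold change 0.32, SE 0.10, edgeR adjusted p = 0.0866). Neither pair of groups overlapped. Hdac7 (0.17) and Hdac9 (0.18) had groups that overlapped. After correction for GC content and length the log2 fold change of Hdac5 was 0.10.

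**Figure D4:**
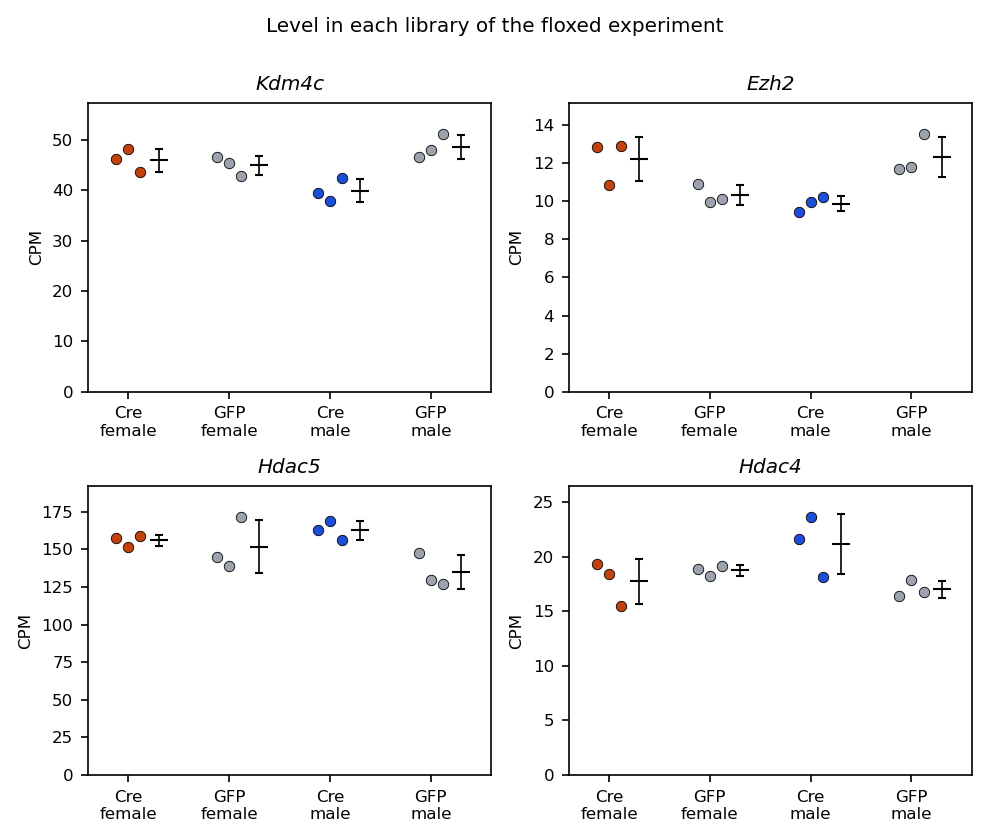
CPM in each floxed library for Kdm4c, Ezh2, Hdac5 and Hdac4, with Cre beside GFP groups for females and then males, and bars for the mean with its SD (n = 3). In males Kdm4c and Ezh2 lie below and Hdac5 and Hdac4 above the GFP libraries, and in females the groups overlap for all 4 genes.

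The remaining classes in Cre males mostly had small negative log2 fold changes. Of the H3K4 methyltransferases all 4 had negative log2 fold changes (-0.19 to -0.15), and Kmt2e, at 152, 151 and 140.4 CPM in Cre males against 162, 167 and 167 in GFP males, had groups without overlap (edgeR adjusted p = 0.092). Setd2 was at 116, 117 and 114 CPM in Cre males against 127, 132 and 135 in GFP males (log2 fold change -0.18, edgeR adjusted p = 0.0863). Among acetyltransferases 7 of 8 were negative, and Kat6b was at 96.0, 86.8 and 89.6 CPM in Cre males against 104, 99.8 and 102 in GFP males (log2 fold change -0.17, edgeR adjusted p = 0.0785). Groups also lay apart, with the Cre libraries lower, for Kat2b, Kat7, Hdac2, Sirt1, Kdm5b, Ehmt1 and Dot1l, at log2 fold changes of -0.22 to -0.076. Sirt2, Sirt6 and Kdm6b were positive (0.12, 0.18 and 0.17) with overlapping groups. Across the 46 genes the Cre effect in males followed the GC content of the exons (Spearman's rho 0.649, n = 46 genes, beside 0.254 over 16760 genes), a description over genes that share the same libraries. Hdac2, Kdm4c, Sirt1 and Setd2 lie at the low end of GC content (41.9% to 44.3%), and Hdac5, Hdac7 and Ehmt2 at the high end (59.8% to 60.8%). Suv39h2, Hdac8 and Kdm5a lie in the same low range, and their Cre male and GFP male groups overlapped.

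**Figure D5:**
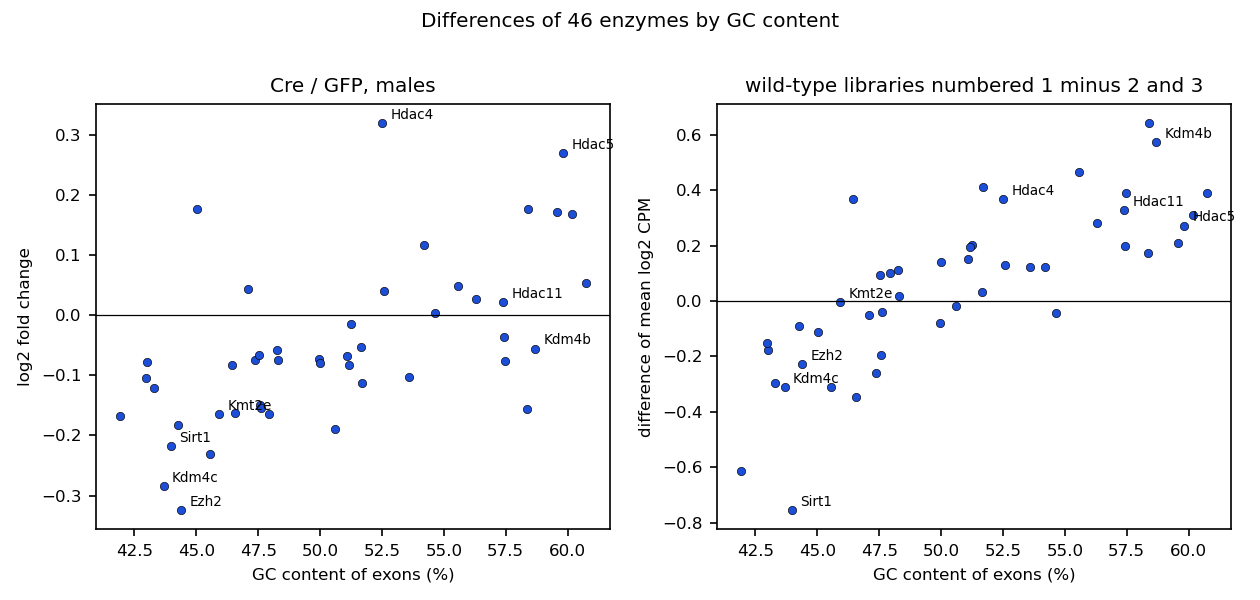
Difference of each of the 46 enzymes against the GC content of its exons in percent, for the log2 fold change of Cre against GFP in males (left) and for the mean log2 CPM of wild-type libraries numbered 1 minus those numbered 2 and 3 (right). Points climb from lower left to upper right in both panels, more tightly on the right.

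Cre males and GFP males also differ in the cortical markers given above, without overlap, and no library of Cre males is free of them. Cre male library 3 had the lowest summed cortical markers of the Cre males (415 CPM). Without it, Hdac4 was called beside Kdm4c, and over all genes 970 were called higher and 333 lower, in place of 647 and 225. Without Cre male 2 no enzyme was called and 341 genes were, in place of 872. The log2 fold changes were then -0.25 for Kdm4c, -0.33 for Ezh2 and 0.24 for Hdac5. What share of the differences in these enzymes goes with cortical tissue was not tested.

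In females Cre changed none of the 46 enzymes past the test, against 0% of all genes (1049 genes had an unadjusted p below 0.05, and DESeq2 called 33 genes). Log2 fold changes lay between -0.16 and 0.24 with a median of 0.0005 beside 0.00015 over all genes, and all 46 intervals lay within 1.5-fold. Ezh2 had the smallest p, at 12.8, 10.9 and 12.9 CPM in Cre females against 10.9, 9.95 and 10.1 in GFP females (log2 fold change 0.24, SE 0.09, edgeR adjusted p = 0.783). The groups touched, at Cre female library 2 and GFP female library 1. Sirt7, a nucleolar sirtuin, was at 38.3, 32.6 and 38.0 CPM in Cre females against 29.5, 32.0 and 34.8 in GFP females (log2 fold change 0.18, edgeR adjusted p = 0.797). Ehmt2 was at 255, 246 and 247 CPM in Cre females against 202, 214 and 243 in GFP females, without overlap (log2 fold change 0.18, edgeR adjusted p = 0.806), and after correction for GC content and length its log2 fold change was 0.073. Groups lay apart for 3 of 46 enzymes (Ehmt2 and Kdm6b higher, Sirt3 lower), against 11.5% of all genes. Summed cortical markers were 155 to 243 CPM in Cre females against 131 to 183 CPM in GFP females, with 0 of 8 called.

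Averaged over the sexes Cre changed 0 of 46 enzymes past the test, against 1.42% of genes. Kdm4c had the smallest p (log2 fold change -0.13, edgeR adjusted p = 0.192), and -0.084 with GC content and length corrected. Kdm6b followed, at 38.7, 38.1 and 34.0 CPM in Cre females and 32.6, 38.2 and 34.0 in Cre males, against 29.8, 31.0 and 33.1 in GFP females and 36.1, 27.4 and 29.7 in GFP males (log2 fold change 0.20, edgeR adjusted p = 0.203). With that correction the averaged value of Kdm6b was 0.10. Kmt2e came after it (log2 fold change -0.10, edgeR adjusted p = 0.238), at -0.058 with the correction.

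The difference of the Cre effect, female minus male, passed for 0 of 46 enzymes with edgeR, against 0.0114% of genes. An unadjusted p below 0.05 was found for 9 of 46 enzymes, beside 3082 of the 17597 genes tested. Ezh2 had the largest difference, 0.57 on the log2 scale (SE 0.13, 95% interval 0.29 to 0.84, edgeR adjusted p = 0.0924), since its log2 fold change was positive in females and negative in males. Kdm4c (0.32, edgeR adjusted p = 0.125) and Kdm5b, a demethylase of lysine 4 (0.23, edgeR adjusted p = 0.18), came next. With DESeq2 the differences of Ezh2 and Kdm4c were called (adjusted p = 0.0103 and 0.0449), among 606 genes in place of 2. Hdac4 differed the other way (-0.40, edgeR adjusted p = 0.201).

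Of 37 further histone-modifying enzymes outside the 46, none was called for stress in any contrast. In Cre males Setd1b, an H3K4 methyltransferase of the COMPASS complex, was called higher (log2 fold change 0.22, edgeR adjusted p = 0.0406), 1 of 37 against 4.96% of all genes. In the floxed experiment 2 of 37 were called higher in females than males, against 0.0682% of all genes called in either direction: Kdm5c (log2 difference 0.29, edgeR adjusted p = 0.000838) and Kdm6a (0.43, edgeR adjusted p = 0.000496), X-linked demethylases that escape X inactivation in mice. Their relatives among the 46, Kdm5a, Kdm5b and Kdm6b, were not called, at log2 differences of -0.0024, 0.041 and 0.045.

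Subunits of the complexes in which these enzymes work were followed as a further list of 62 genes. None was called for stress, for sex or for Cre in females. In Cre males 3 of 62 were called, against 4.96% of all genes, which is near the background. Rcor2, a CoREST scaffold that binds Kdm1a and Hdac1 or Hdac2, rose (log2 fold change 0.57, edgeR adjusted p = 0.0168), and it was also called averaged over the sexes (0.46, edgeR adjusted p = 0.0225). Jarid2, which guides Polycomb repressive complex 2, fell (log2 fold change -0.20, edgeR adjusted p = 0.0458), as did Jade1, a scaffold of the Kat7 complex (-0.24, edgeR adjusted p = 0.0475). Their catalytic partners were not called: Kdm1a was at -0.053, Ezh2 at -0.32 and Kat7 at -0.079 on the log2 scale in Cre against GFP males. In all, 19 of 62 subunits had an unadjusted p below 0.05 in that comparison (5 positive and 14 negative), beside 24.8% of all genes. The cortical markers differ between the same libraries, and their part in these calls was not tested.

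Of the 46 genes, 16 have an exon that overlaps a gene on the opposite strand, among them Ezh2, Hdac4, Kdm6b, Sirt1, Sirt2, Hdac11 and all H3K4 methyltransferases but Kmt2d. The sources used here do not give the strand setting of the counting, so counts of these genes can include reads from the overlapping partner. Kdm4c, Hdac5 and Hdac9 have no such overlap, though Hdac5 overlaps another gene on its own strand.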

How the data were processed

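Libraries of pooled mRNA were sequenced from nucleus accumbens punches. The authors deposited raw read counts per Ensembl gene for 24 libraries. The submitters' processing notes name TopHat2 2.0.9, Bowtie2 2.1.0 and HTSeq 0.6.0 without order, and the builds NCBIM37 and mm9; the strand setting is not given in the sources used here. Totals were 7116123 to 12145551 counts in wild-type and 28132563 to 59829070 in floxed libraries. Symbols, exon lengths and GC content came from GENCODE M21 by Ensembl ID, and 32919 of 37991 IDs had a symbol.

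The wild-type and floxed experiments were fitted apart with edgeR 4.0.16 (TMM scaling, filterByExpr, robust quasi-likelihood F tests, a mean per group) in R 4.3.3, over all genes that passed the filter, with Benjamini-Hochberg adjustment over those genes and calls below 0.05. Log2 fold changes are stress over control, Cre over GFP and female over male. The script was tested on simulated data.

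The members and lists were chosen with earlier results of these data known. Genes named per comparison are every called enzyme and the 3 of smallest p, the highest and lowest per kb of each class, and the called genes of the other lists, up to 5. Other genes named were chosen after their values were seen.

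Alternatives were DESeq2 1.42.0, RLE scaling, no filter, only the groups compared, the replicate number as a block, offsets for GC content and length, and each library left out. Leaving out the wild-type libraries numbered 1 was chosen after seeing the data. Same-numbered stressed and control females deviated together (r = 0.617, 0.341 and 0.564), stressed and control males less evenly (0.384, 0.292 and 0.0869), and Cre and GFP libraries did not (-0.459 to 0.178). So the numbers pair the wild-type females most clearly and the males more weakly, by correlation and not by any label. Each stressed male library correlated best with the control male of its own number. Wild-type libraries numbered 1 also deviated together across the sexes (r = 0.504 under stress and 0.44 in controls). P-values measure the spread between libraries, which by the protocol are pools of mice.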

Additional observations from a re-analysis of the deposited data

Results flagged for a closer look

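The stress effect on Hdac9 pointed in opposite directions in the sexes: every stressed female library lay below the control females and every stressed male library above the control males. Hdac9 was flagged by that separation itself, and the share of all genes that show it was not counted. The difference of the log2 fold changes, female minus male, was -0.66 (edgeR adjusted p = 1), so it did not pass the test over all genes. Its value was -0.50 without the libraries numbered 1.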

How the results depend on the processing

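In each comparison, no enzyme that was called or among the 3 of smallest p changed the sign of its log2 fold change under the alternatives. Other enzymes of the 46 did: for Cre in males 14 were positive in the main fit and 8 with GC and length offsets. The median over the 46 also changed sign where it was small. For stress in males it was 0.0079 with GC and length offsets, against -0.023. For the female minus male difference of stress it was 0.020 without the libraries numbered 1 and 0.032 without control female 1, against -0.032. For Cre in females it ran from -0.024 to 0.022, and for sex in floxed mice from -0.0088 to 0.0059, with 1 library left out. In every alternative for stress and for sex, 0 of the 46 enzymes were called, while the number of genes called among all tested moved. For stress in females it was 2 with DESeq2, 5 with no filter, 5 with the replicate block, 1 with GC and length offsets and 5 with both, against 0. For stress in males it was 4, 3, 4 and 4 with DESeq2, no filter, the block and the block with offsets, and 0 with the males fitted alone, against 1. For stress averaged it was 11, 12, 13, 6 and 14 with DESeq2, no filter, the block, the offsets and both, against 2. For sex in wild types it was 13, 14, 11 and 22 with DESeq2, no filter, the offsets and the block with offsets, against 6. For Cre in females DESeq2 called 33 genes, and for sex in floxed mice 88.

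For Cre in males the number of the 46 enzymes called was 6 with DESeq2 (Hdac5, Kat6b, Kdm4c, Kmt2e, Ezh2 and Setd2), 2 with offsets (Hdac4 and Kdm4c), and 0 with the males fitted alone or with the block and offsets together. Genes called were 1756 with DESeq2, 551 with the males alone, 191 with the block and 89 with block and offsets, against 872. With the offsets alone 555 genes were called higher and 232 lower. Averaged over the sexes genes called were 643, 34, 147 and 9 with DESeq2, the block, the offsets and both, against 249. For the female minus male difference DESeq2 called 2 enzymes, and genes called were 606 with DESeq2, 43 with no filter, 0 with the block, 9 with offsets and 0 with both, against 2.

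With 1 library left out in turn, genes called ranged over 0 to 1 for stress in females, 0 to 1 in males and 1 to 3 averaged. For Cre they ranged over 93 to 1303 in males (0 to 2 enzymes), 17 to 401 averaged (0 to 1 enzyme) and 0 to 500 for the difference, and for sex in floxed mice over 9 to 92. The replicate block changed no call of an enzyme except together with the offsets. The cause of these changes was not tested. Depth limits the enzymes of low count in the wild-type libraries. The lowest count in a library was 22 for Suv39h2, 49 for Hdac10 and Sirt5, 55 for Sirt6, 58 for Ezh2, 76 for Sirt1 and 86 for Hdac1.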
